A study of Mus musculus with 6 samples.

Results

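Genes that mark macrophages of the ganglion, 10 in number, were read from messenger RNA libraries of mouse trigeminal ganglion: Lyz2, Cd68, Csf1r, Cx3cr1, Trem2, Tyrobp, Mrc1, Cd163, Adgre1 and Aif1. They were chosen by gene symbol, as a fixed set of 10 names, and all 10 were found among the 16415 genes of the deposited table. The trigeminal ganglion is the place where the cell bodies of the sensory neurons of the face and the meninges lie. The libraries form a SETDB2-up group (n = 3) and an NC-up group (n = 3); the labels give both groups a wild-type genotype and name the treatment by these words alone, with no strain, age, dose, time or route. Whether the libraries of a group come from different animals is not stated in the labels; the p-values therefore describe how far these libraries spread, which may be technical. The comparison asks what the SETDB2-up treatment did to each marker relative to NC-up.

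Tissue macrophages are phagocytes that live among the neurons, satellite glia, Schwann cells and vessels of a sensory ganglion. They depend on the receptor Csf1r and its ligands Csf1 and Il34, they sense the neuronal ligand Cx3cl1 through Cx3cr1, and they sense lipids and debris through Trem2, which signals through the adaptor Tyrobp. Lyz2 and Cd68 act in their lysosomes, while Mrc1 and Cd163 are scavenger receptors of resident and perivascular macrophages. In whole tissue, fewer macrophages and less RNA per macrophage cannot be told apart.

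Values are read counts per gene, scaled by the authors with 1 factor for each library and called normalised reads here; the recovered whole reads summed to between 20355707 and 23501386 in the SETDB2-up libraries and between 19334997 and 23395693 in NC-up libraries. Setdb2 itself had 113, 97.6 and 104 normalised reads in the SETDB2-up libraries 1, 2 and 3 and 69.9, 58.4 and 71.5 in NC-up libraries, and passed the test (log2 fold change 0.65 ± 0.19 SE, adjusted p = 0.0253 by limma). That call was lost after GC correction (0.48, adjusted p = 0.159) and without SETDB2-up library 1, 2 or 3 or NC-up library 2 (0.56 to 0.70, adjusted p = 0.0515 to 0.141 by limma). Markers of sensory neurons (14 genes) summed to 393867 to 409633 normalised reads in the SETDB2-up libraries and 386351 to 405873 in NC-up libraries. Myelin genes of Schwann cells (6 genes) summed to 255196 to 289855 in SETDB2-up and 287679 to 301135 in NC-up. Single genes differed: 3 of the 14 neuronal markers rose and 2 fell, and 3 of the 6 myelin genes fell. Beside this, 16.4% of all genes tested passed (limma, adjusted p under 0.05). After GC correction, where 5.35% passed, 4 neuronal markers rose, 2 fell and no myelin gene passed. Liver genes stood apart in SETDB2-up libraries 1 and 2: 12 of them summed to 2896, 6678 and 104 normalised reads in the SETDB2-up libraries 1, 2 and 3, against 69.9, 60.3 and 76.9 in NC-up libraries. Alb, which encodes serum albumin, had 1673, 3769.5 and 11.6 normalised reads in the SETDB2-up libraries and was listed at 0 in all 3 NC-up libraries. Skin and muscle genes stood apart in NC-up libraries 2 and 3: 5 keratinocyte genes summed to 119.7, 127 and 114 normalised reads in the SETDB2-up libraries 1, 2 and 3 and to 173, 512 and 518 in NC-up libraries, and 4 of the 4 tested fell. Skeletal muscle genes (5) summed to 48.4, 46.8 and 112 in SETDB2-up libraries and to 97.5, 228 and 258 in NC-up libraries, and 3 of 5 fell. The genes of Kupffer cells, the macrophages of the liver (Clec4f, Vsig4, Marco, Cd5l and Clec1b) were not analysed here.

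Among the 10 markers 1 gene, Lyz2, rose in SETDB2-up libraries, by 1.44-fold, and none fell. The other 9 did not pass the test, and the libraries of both groups overlapped for all 10, Lyz2 included. Over all genes tested, 16.4% passed (limma, adjusted p under 0.05), 7.71% upward and 8.71% downward, and 33.3% had groups that did not overlap. The markers' median log2 fold change was -0.01, beside 0.00 over the 16387 genes tested, and 5 markers had a positive value and 5 a negative one. All 10 passed the filter on low values. Their values were lower and less precise than those of most genes: the median marker averaged 146 normalised reads with a standard error of 0.22 on the log2 scale, beside 420.2 normalised reads and 0.10 for the median gene.

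**Figure D1:**
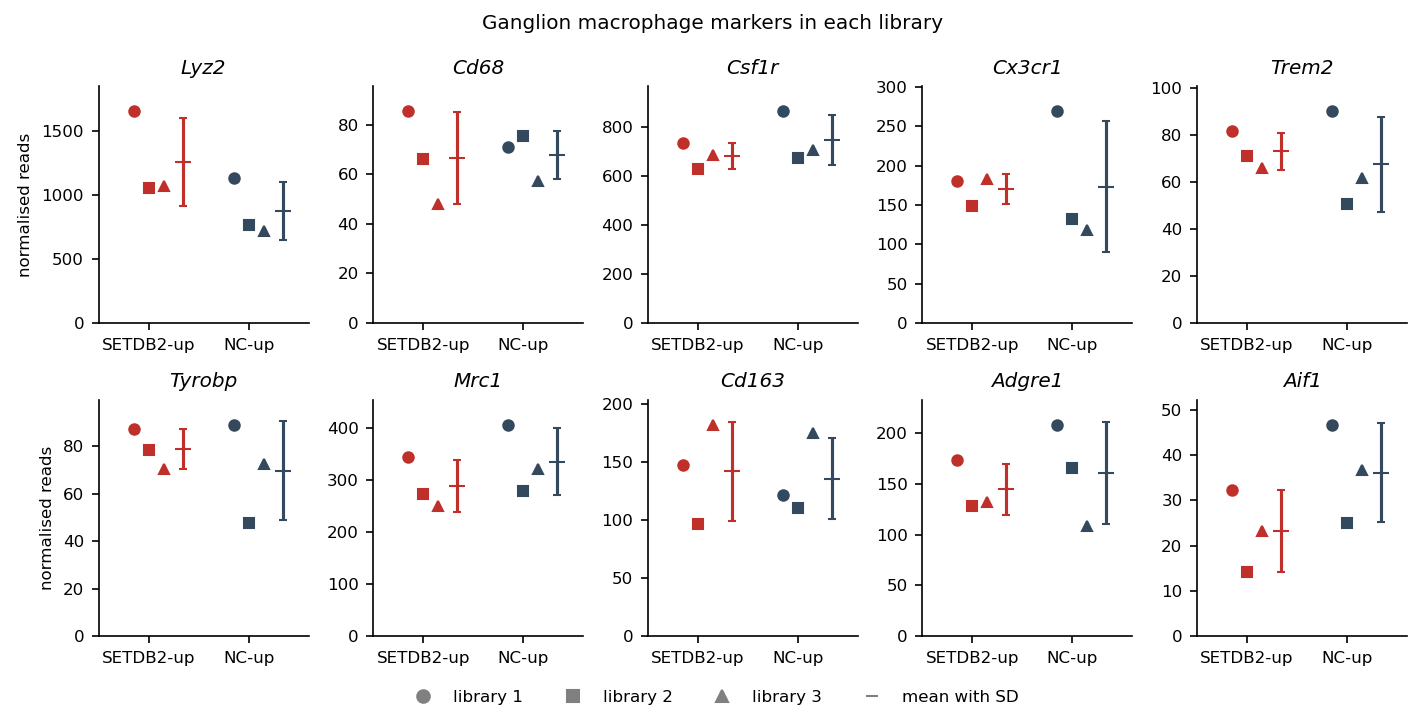
Normalised reads of each marker (vertical axes, each from 0) in the 3 SETDB2-up libraries (red, left) and the 3 NC-up libraries (dark, right). Symbols give the library number, bars the mean with SD; the values of the groups overlap in all 10 panels, and library 1 is the highest of its group in 8 panels of each group.

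Lyz2, the lysozyme of macrophages, monocytes and neutrophils (gene 17105, chromosome 10, 117277541 to 117282272, minus strand, GRCm38), had the highest level of the 10. It had 1650 normalised reads in SETDB2-up library 1, 1053 in library 2 and 1067 in library 3, against 1131, 767 and 715 in NC-up libraries 1, 2 and 3. Library 1 was the highest in each group, and NC-up library 1 lay above SETDB2-up libraries 2 and 3. The means were 1257 ± 341 in SETDB2-up and 871 ± 227 in NC-up (SD, n = 3 each), and the log2 fold change was 0.53 ± 0.15 (SE, adjusted p = 0.0227 by limma), with a 95% interval of 0.21 to 0.84. EdgeR on the recovered reads, which called 16.5% of genes, gave 0.53 with an adjusted p of 0.0262. DESeq2, which called 18.1%, gave 0.53 with an adjusted p of 0.254.

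The call for Lyz2 depended on which libraries were kept. It held without NC-up library 1 (log2 fold change 0.73, adjusted p = 0.00137 by limma). Lyz2 also kept the call without SETDB2-up library 2 (0.64, adjusted p = 0.0132 by limma) or 3 (0.63, adjusted p = 0.00381 by limma). Without SETDB2-up library 1 its log2 fold change was 0.31 (adjusted p = 0.198 by limma; 6.67% of genes called), without NC-up library 2 it was 0.45 (adjusted p = 0.115 by limma; 9.83% called), and without NC-up library 3 it was 0.40 (adjusted p = 0.127 by limma; 12.8% called). Without both libraries that held liver transcripts, which leaves SETDB2-up library 3 alone and takes the spread from the NC-up libraries, it was 0.32 (adjusted p = 0.380 by limma; 3.30% called). Without NC-up libraries 2 and 3 together, those with the most keratinocyte and muscle transcripts, which leaves NC-up library 1 alone and takes the spread from the SETDB2-up libraries, it was 0.12 (adjusted p = 0.709 by limma; 6.89% called), a fit chosen after the data were seen. SETDB2-up library 2, which held the most liver transcripts, had a Lyz2 value of 1053, close to the 1067 of library 3. SETDB2-up library 1, which also held liver transcripts, had the highest Lyz2 value, 1650. Fold changes between the groups followed base composition, and the Lyz2 transcript holds 48.3% GC. In its decile of genes (46.6% to 48.4% GC) 9.61% of genes rose and 2.84% fell. After a GC correction the Lyz2 log2 fold change was 0.47 (adjusted p = 0.0854 by limma), in a fit where 5.35% of genes passed. The part of the liver, skin and muscle transcripts and of base composition in the Lyz2 result was not tested beyond these fits.

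Monocytes and neutrophils also make lysozyme, and their markers were therefore read beside it. The 6 neutrophil genes analysed summed to 96.9, 126 and 162 normalised reads in the SETDB2-up libraries 1, 2 and 3 and to 104, 114 and 114 in NC-up libraries. Of the 6, 5 had a positive log2 fold change and 1 a negative one, with a median of 0.22. None passed the test in limma or edgeR, which called 16.4% and 16.5% of all genes, and none had an unadjusted p under 0.05. SETDB2-up library 1 had the lowest neutrophil sum and the highest Lyz2 value of its group. The neutrophil genes had few reads, and whether their sum bears on Lyz2 was not tested. Of the 5 monocyte genes analysed, 3 were higher and 2 lower, 1 passed and 2 had an unadjusted limma p under 0.05; they summed to 1795, 1339.6 and 1301 in SETDB2-up and to 1836, 1799.5 and 1589 in NC-up. Ccr2, the chemokine receptor of blood monocytes, named after its values were seen, had 98.8, 76.3 and 44.6 normalised reads in the SETDB2-up libraries 1, 2 and 3 and 65.7, 33.5 and 30.4 in NC-up libraries. Like Lyz2 it was highest in library 1 of each group, and the groups overlapped. It did not pass (log2 fold change 0.76 ± 0.32 SE, adjusted p = 0.107 by limma), but it did without SETDB2-up library 3 (1.08, adjusted p = 0.0186 by limma) or NC-up library 1 (1.10, adjusted p = 0.019 by limma). Most of the monocyte sum was Fn1, the matrix protein fibronectin that fibroblasts make as well, which alone of the 5 passed, and it fell (log2 fold change -0.32 ± 0.10 SE, adjusted p = 0.0317 by limma); its call was lost after GC correction (-0.26, adjusted p = 0.16) and without SETDB2-up library 2 or 3 or NC-up library 1 or 2 (-0.29 to -0.24, adjusted p = 0.0683 to 0.152 by limma). Fibroblast markers summed to 21050.2 to 24693 normalised reads in SETDB2-up and to 24070.1 to 28808 in NC-up. None of the tested genes of T and NK cells (2), B cells (1), mast cells (5) and dendritic cells (3) passed in limma or edgeR, and 1 mast cell and 1 dendritic cell gene had an unadjusted limma p under 0.05. The part of these cells in the Lyz2 result was not tested.

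Lyz1, the neighbouring lysozyme gene of intestinal Paneth cells (chromosome 10, 117287795 to 117292868), is a close copy of Lyz2. Whether reads can be told apart depends on the whole transcripts, and the coding part is 447 of the 1316 bases of the Lyz2 transcript. The coding sequences of both are shown over bases 1 to 276 of 447. They are read 5′ to 3′ from the start codon on the minus strand, as GENCODE M21 gives them for GRCm38. Capitals mark the 20 bases of this stretch that differ.
Lyz2: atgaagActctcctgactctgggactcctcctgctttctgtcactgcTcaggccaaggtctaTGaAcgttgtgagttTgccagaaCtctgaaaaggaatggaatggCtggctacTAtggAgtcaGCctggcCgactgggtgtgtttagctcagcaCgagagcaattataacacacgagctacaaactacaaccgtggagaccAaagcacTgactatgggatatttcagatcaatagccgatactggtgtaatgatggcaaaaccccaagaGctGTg
Lyz1: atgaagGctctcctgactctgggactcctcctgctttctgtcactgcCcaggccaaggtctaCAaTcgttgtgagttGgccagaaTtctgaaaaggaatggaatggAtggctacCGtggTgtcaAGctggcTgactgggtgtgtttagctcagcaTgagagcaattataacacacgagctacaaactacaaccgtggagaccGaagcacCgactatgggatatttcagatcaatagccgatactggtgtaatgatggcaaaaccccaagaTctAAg
The copies differ at 22 of 447 coding bases (95.1% identity). The longest stretch that the whole transcripts share is 118 bases, and none of the 1167 windows of 150 bases in the Lyz2 transcript, the read length given in the labels, occurs in Lyz1. The sources used here do not say how reads that match both genes were counted. Lyz1 had 28.5, 29.5 and 28.6 normalised reads in the SETDB2-up libraries 1, 2 and 3 and 31.8, 22.0 and 14.3 in NC-up libraries, and it did not pass the test (log2 fold change 0.40 ± 0.36 SE, adjusted p = 0.485 by limma). With Lyz1 and Lyz2 summed as a single gene the log2 fold change was 0.52 (adjusted p = 0.0225 by limma).

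Cd68, a heavily glycosylated lysosomal membrane protein (gene 12514, chromosome 11, 69664213 to 69666170, minus strand), had 85.5, 66.1 and 48.2 normalised reads in the SETDB2-up libraries 1, 2 and 3 and 71.0, 75.7 and 57.2 in NC-up libraries. The NC-up values fell inside the range of the SETDB2-up values. Its log2 fold change was -0.06 ± 0.24 (SE, adjusted p = 0.901 by limma), with a 95% interval of -0.56 to 0.44, an interval that includes a fall as large on that scale as the rise of Lyz2.

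**Figure D2:**
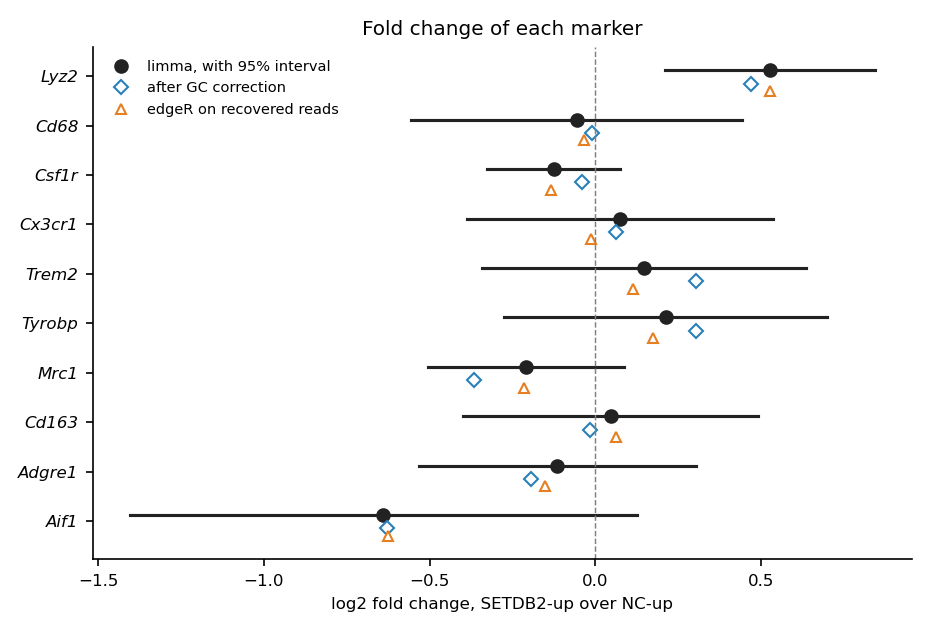
Log2 fold change of each marker, SETDB2-up over NC-up (horizontal axis), from limma with its 95% interval (filled circles), after GC correction (diamonds) and from edgeR on recovered reads (triangles). The interval of Lyz2, 0.21 to 0.84, is the only one of the 10 that does not include 0.

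The growth factor receptor Csf1r (gene 12978, chromosome 18, 61105572 to 61131139, plus strand) was the most precisely measured marker. It had 734, 627 and 683 normalised reads in the SETDB2-up libraries 1, 2 and 3 and 862, 672 and 704 in NC-up libraries. Only NC-up library 1 stood above all SETDB2-up libraries. The means were 681 ± 53.9 in SETDB2-up and 746 ± 102 in NC-up (SD, n = 3 each), and the log2 fold change of -0.13 ± 0.10 (SE, adjusted p = 0.405 by limma) had a 95% interval of -0.33 to 0.08. That interval corresponds to between 0.797 and 1.05 times the NC-up level.

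Its ligands were read from a list of 7 ligand genes, of which 6 were tested. Csf1 had 347, 404 and 392 normalised reads in the SETDB2-up libraries and 512, 409 and 459 in NC-up libraries; the groups did not overlap, but the gene did not pass the test (log2 fold change -0.27 ± 0.11 SE, adjusted p = 0.0904 by limma). Il34 had 589.9, 554 and 648 normalised reads in the SETDB2-up libraries and 593, 606 and 609.6 in NC-up libraries (log2 fold change -0.02 ± 0.09 SE, adjusted p = 0.920 by limma). These genes are known to be made by the cells around macrophages, and both are named by role, outside the rule for named genes.

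Cx3cr1, the receptor for fractalkine (gene 13051, chromosome 9, 120048683 to 120068296, minus strand), had 180.5 normalised reads in SETDB2-up library 1, 148.5 in library 2 and 183 in library 3, against 269, 132 and 118 in NC-up libraries 1, 2 and 3. The NC-up values lay on both sides of the SETDB2-up range, with NC-up library 1 far above the other NC-up libraries. The log2 fold change was 0.07 ± 0.22 (SE, adjusted p = 0.855 by limma; 95% interval -0.39 to 0.54). Without NC-up library 1 it was 0.44 (adjusted p = 0.0738 by limma), in a fit that called 13.7% of genes, and without NC-up libraries 2 and 3 together, which leaves that library alone, it was -0.66 (adjusted p = 0.03 by limma). In edgeR it was -0.015 (adjusted p = 0.973).

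Its ligand gene Cx3cl1, which encodes the membrane-bound chemokine fractalkine, fell. It had 173, 182 and 188 normalised reads in the SETDB2-up libraries 1, 2 and 3 and 236, 283 and 229 in NC-up libraries, so the groups did not overlap. The log2 fold change was -0.45 ± 0.13 (SE, adjusted p = 0.0220 by limma), and after GC correction it was -0.31 (adjusted p = 0.174). Leaving out SETDB2-up library 1 (-0.42, adjusted p = 0.111 by limma), SETDB2-up library 2 (-0.46, adjusted p = 0.0661) or NC-up library 2 (-0.36, adjusted p = 0.108) also ended the call. Cx3cl1 was the only one of the 6 tested ligand genes past the threshold, beside 16.4% of all genes tested. The median of the list was -0.21.

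Trem2, the lipid-sensing receptor (gene 83433, chromosome 17, 48346401 to 48352276, plus strand), had 81.7, 71.2 and 66.0 normalised reads in the SETDB2-up libraries 1, 2 and 3 and 90.0, 50.8 and 61.7 in NC-up libraries. The SETDB2-up values lay within the range of the NC-up values. Its adaptor Tyrobp, which carries the activation motif that Trem2 lacks (gene 22177, chromosome 7, 30413782 to 30417582, plus strand), had 87.4, 78.3 and 70.5 in SETDB2-up libraries and 89.0, 47.9 and 72.4 in NC-up libraries. The log2 fold changes were 0.15 ± 0.23 for Trem2 (SE, adjusted p = 0.717 by limma; 95% interval -0.34 to 0.63) and 0.21 ± 0.23 for Tyrobp (SE, adjusted p = 0.581 by limma; 95% interval -0.28 to 0.70). The ratio of Trem2 to Tyrobp per transcript length was 0.513, 0.499 and 0.514 in SETDB2-up and 0.555, 0.582 and 0.467 in NC-up.

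Of 11 genes for adaptors, kinases and phosphatases of this signalling route, 10 were tested and 1 passed, beside 16.4% of all genes tested. Cbl, a ubiquitin ligase that turns over activated receptors, rose (log2 fold change 0.24 ± 0.08 SE, adjusted p = 0.0364 by limma), with 2471, 2562 and 2151 normalised reads in the SETDB2-up libraries and 1836, 2174 and 2076 in NC-up libraries. The groups overlapped, and the call was lost after GC correction (0.15, adjusted p = 0.242) and without SETDB2-up library 1 or 2 or NC-up library 1 or 3 (0.17 to 0.26, adjusted p = 0.0673 to 0.167 by limma). Cbl is made in many cell types, and the median of the list was -0.02.

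Mrc1, the mannose receptor (gene 17533, chromosome 2, 14229414 to 14332023, plus strand), had 345, 273 and 249.9 normalised reads in the SETDB2-up libraries 1, 2 and 3 and 406, 279.6 and 321 in NC-up libraries. The groups overlapped through SETDB2-up library 1. The means were 289 ± 49.6 in SETDB2-up and 335 ± 64.3 in NC-up (SD, n = 3 each), and the log2 fold change was -0.21 ± 0.14 (SE, adjusted p = 0.336 by limma; 95% interval -0.50 to 0.08). Mrc1 has the lowest GC content of the 10 transcripts, 43.4%, in a decile of genes whose median log2 fold change was 0.17, and after GC correction its value was -0.37 (adjusted p = 0.131).

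Cd163, the receptor for haemoglobin bound to haptoglobin (gene 93671, chromosome 6, 124304636 to 124330529, plus strand), had 147, 96.6 and 182 normalised reads in the SETDB2-up libraries 1, 2 and 3 and 122, 110.1 and 175 in NC-up libraries. Unlike most of the other markers it was highest in library 3 of each group. The log2 fold change was 0.05 ± 0.21 (SE, adjusted p = 0.909 by limma; 95% interval -0.40 to 0.49). It is the only marker overlapped by another listed gene, Gm52877 on the opposite strand, which averaged 38.4 normalised reads over the 6 libraries against 139 for Cd163.

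Adgre1, the adhesion G protein-coupled receptor used as the classical mouse macrophage marker (gene 13733, chromosome 17, 57358581 to 57483529, plus strand), had 173, 128 and 132 normalised reads in the SETDB2-up libraries 1, 2 and 3 and 208, 166 and 108 in NC-up libraries. The NC-up values lay on both sides of the SETDB2-up range (log2 fold change -0.12 ± 0.20 SE, adjusted p = 0.741 by limma; 95% interval -0.53 to 0.30). Aif1, an actin-binding protein of macrophages and microglia (gene 11629, chromosome 17, 35170986 to 35176083, minus strand), had the fewest reads. It had 32.3, 14.2 and 23.2 normalised reads in the SETDB2-up libraries and 46.6, 24.9 and 36.6 in NC-up libraries, which overlapped. Its log2 fold change was the largest in size of the 10 but did not pass: -0.64 ± 0.37 (SE, adjusted p = 0.250 by limma), with a 95% interval of -1.40 to 0.12.

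Per transcript length, in TPM (each gene's reads per base as a share of the sum over the listed genes), the level of Lyz2 stood apart from the other 9. It averaged 136 ± 38.9 TPM in SETDB2-up and 92.2 ± 25.0 TPM in NC-up (SD, n = 3 each), and in every library it was above Csf1r, the next in order. Csf1r averaged 20.6 ± 1.70 TPM in SETDB2-up and 22.1 ± 3.19 in NC-up, and Tyrobp averaged 18.8 ± 2.45 TPM in SETDB2-up and 16.2 ± 4.87 in NC-up (SD, n = 3 each). Csf1r was above Tyrobp, and Tyrobp above Trem2, in 6 of 6 libraries. The 7 others followed closely, from Trem2 with a mean of 9.10 TPM over the 6 libraries to Cd163 with 4.38 TPM, and the ranges of every pair of neighbours in that order overlapped. All markers lay well above the level of 3 reads, and even Aif1 had 14 to 34 recovered reads per SETDB2-up library and 26 to 44 per NC-up library.

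Within each group, most markers were highest in the same library. Library 1 was the highest of its group for 8 of 10 markers in SETDB2-up (all but Cx3cr1 and Cd163) and for 8 of 10 in NC-up (all but Cd68 and Cd163), and it was the lowest for none. Among all genes tested, SETDB2-up library 1 was the highest of its group for 31.1% and NC-up library 1 for 31.9%. The summed normalised reads of the 10 markers were 3517, 2555 and 2705 in SETDB2-up libraries 1, 2 and 3 and 3295, 2326 and 2370 in NC-up libraries. Library 1 of each group thus lay above both other libraries of its group and of the other group.

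Without Lyz2 the sums were 1867, 1502 and 1637 normalised reads in the SETDB2-up libraries and 2163, 1559 and 1655 in NC-up libraries, and the groups overlapped. Lyz2 made up 46.9%, 41.2% and 39.5% of the 10-marker sum in SETDB2-up libraries and 34.3%, 33% and 30.2% in NC-up libraries. The SETDB2-up shares all lay above the NC-up shares, a split of which no test is given because it is a score over the chosen markers. Together the 10 markers held 0.0172%, 0.0123% and 0.0129% of the recovered reads in SETDB2-up libraries and 0.0161%, 0.0112% and 0.0113% in NC-up libraries.

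**Figure D3:**
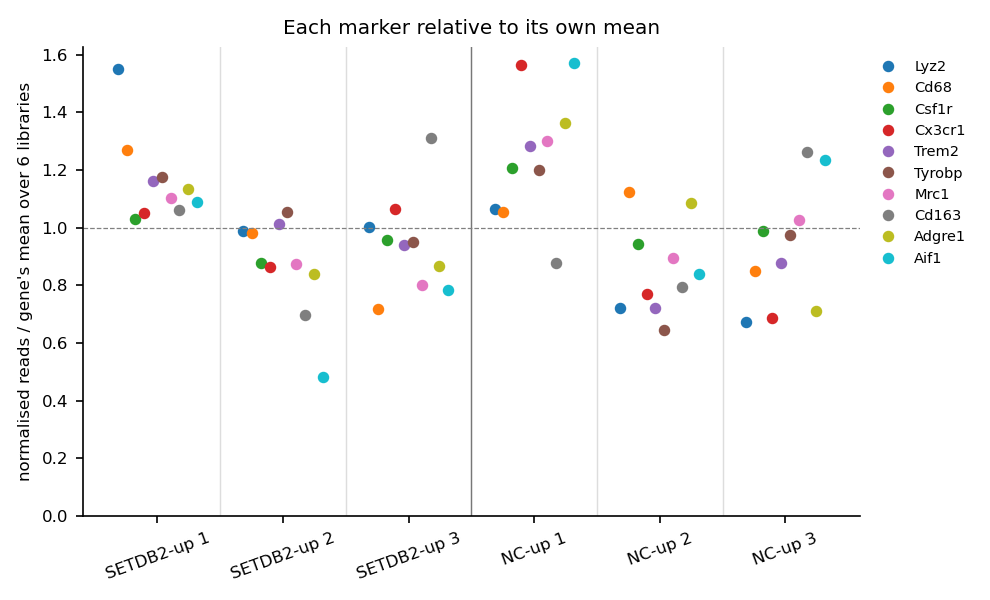
Normalised reads of each marker divided by that marker's mean over the 6 libraries (vertical axis), for the SETDB2-up libraries (left of the dark line) and the NC-up libraries (right of it). In NC-up library 1 all markers but Cd163 lie above their mean; in SETDB2-up library 1 all 10 do.

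The spread between libraries of a group exceeded what counting reads gives for the abundant markers. For Lyz2 the SD was 341 normalised reads in SETDB2-up and 227 in NC-up, against 34.6 in SETDB2-up and 29.3 in NC-up from counting alone. For Cx3cr1 it was 19.2 in SETDB2-up and 83.4 in NC-up, against counting SDs of 12.7 in SETDB2-up and 13.1 in NC-up. For Trem2 in SETDB2-up, by contrast, the SD of 7.98 was no larger than the counting SD of 8.35. The median coefficient of variation of the 10 markers was 17.2% in SETDB2-up and 27.8% in NC-up, beside 7.63% in SETDB2-up and 8.34% in NC-up for the median gene tested, which had more reads.

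Other macrophage genes were then read from lists. Of 23 further genes of macrophages, 1 rose, 1 fell and 21 did not pass, with a median log2 fold change of 0.04. Over all genes tested, 16.4% passed in this fit and 5.35% after GC correction. Without NC-up library 1, where 13.7% of all genes passed, 5 of the 23 rose and 1 fell. Besides Cd53 and C1qc, the genes were Cd14 (0.76), Itgam (0.74), Mpeg1 (0.54) and Ctss (0.43). Without NC-up libraries 2 and 3 together, which leaves NC-up library 1 alone, the log2 fold changes were 0.68 for Cd53 and -0.75 for C1qc. After GC correction none of the 23 passed. Cd53, a tetraspanin of white blood cells, rose, with 59.8, 58.0 and 57.1 normalised reads in the SETDB2-up libraries and 36.0, 27.8 and 37.5 in NC-up libraries (log2 fold change 0.78 ± 0.26 SE, adjusted p = 0.0439 by limma). The groups did not overlap. The call was lost in edgeR with TMM scaling (adjusted p = 0.0504), in DESeq2 (adjusted p = 0.06) and after GC correction (0.56, adjusted p = 0.224). With RLE scaling in edgeR it held (adjusted p = 0.0496). The call was also lost without SETDB2-up library 1, 2 or 3 or NC-up library 2 (0.65 to 0.80, adjusted p = 0.08 to 0.166 by limma).

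C1qc, a chain of the complement protein C1q that tissue macrophages secrete, fell, with 414, 331 and 378 normalised reads in the SETDB2-up libraries and 629, 498 and 476 in NC-up libraries (log2 fold change -0.51 ± 0.11 SE, adjusted p = 0.00556 by limma). Its groups did not overlap either, and after GC correction the value was -0.35 (adjusted p = 0.0922); the call held when each single library was left out, and without SETDB2-up libraries 1 and 2 together the value was -0.49 (adjusted p = 0.106 by limma). The genes for the other chains of the same protein, named because of C1qc and outside the rule, were C1qa at -0.15 ± 0.11 SE (adjusted p = 0.386 by limma) and C1qb at -0.09 ± 0.12 SE (adjusted p = 0.645 by limma), and neither passed. Whether C1qc differed from them was not tested.

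Among markers of perivascular and resident macrophages, 8 of 12 listed genes were tested and none passed in limma or edgeR; 3 had an unadjusted limma p under 0.05. Of the 8, 7 had a negative log2 fold change, and the median was -0.37. The most abundant were Gas6, a ligand of phagocytic receptors (5023 ± 118 normalised reads in SETDB2-up and 5241 ± 55.3 in NC-up; SD, n = 3 each; log2 fold change -0.06 ± 0.05 SE, adjusted p = 0.468 by limma), and Stab1, a scavenger receptor that endothelial cells carry too (596 ± 86.7 normalised reads in SETDB2-up and 618 ± 150 in NC-up; SD, n = 3 each; log2 fold change -0.03 ± 0.14 SE, adjusted p = 0.913 by limma). The extremes, named after their values were seen, were Siglec1, a sialic acid receptor of resident macrophages (-0.67 ± 0.28 SE, adjusted p = 0.109 by limma), and the transglutaminase gene F13a1 (0.42 ± 0.19 SE, adjusted p = 0.134 by limma). Of 9 microglial genes none passed in limma or edgeR and 1 had an unadjusted limma p under 0.05. Olfml3, a secreted protein of microglia that is not confined to macrophages, had a log2 fold change of 0.10 ± 0.11 (SE, adjusted p = 0.557 by limma).

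Of 10 transcription factors of the macrophage lineage, 1 fell and none rose, beside 8.71% and 7.71% of all genes tested. The median log2 fold change of the 10 was -0.26. Maf had 4060, 4419 and 3807 normalised reads in the SETDB2-up libraries and 5311, 5588 and 5336 in NC-up libraries, which did not overlap. Its log2 fold change was -0.40 ± 0.06 (SE, adjusted p = 0.000237 by limma), and it passed in 18 of 18 alternatives, with -0.48 after GC correction. Maf is also a transcription factor of low-threshold mechanosensory neurons. Spi1, which encodes the lineage factor PU.1 and is named by role, had 40.8, 54.9 and 60.7 normalised reads in the SETDB2-up libraries and 91.1, 72.8 and 63.5 in NC-up libraries and did not pass (log2 fold change -0.53 ± 0.24 SE, adjusted p = 0.131 by limma), although the groups did not overlap.

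**Figure D4:**
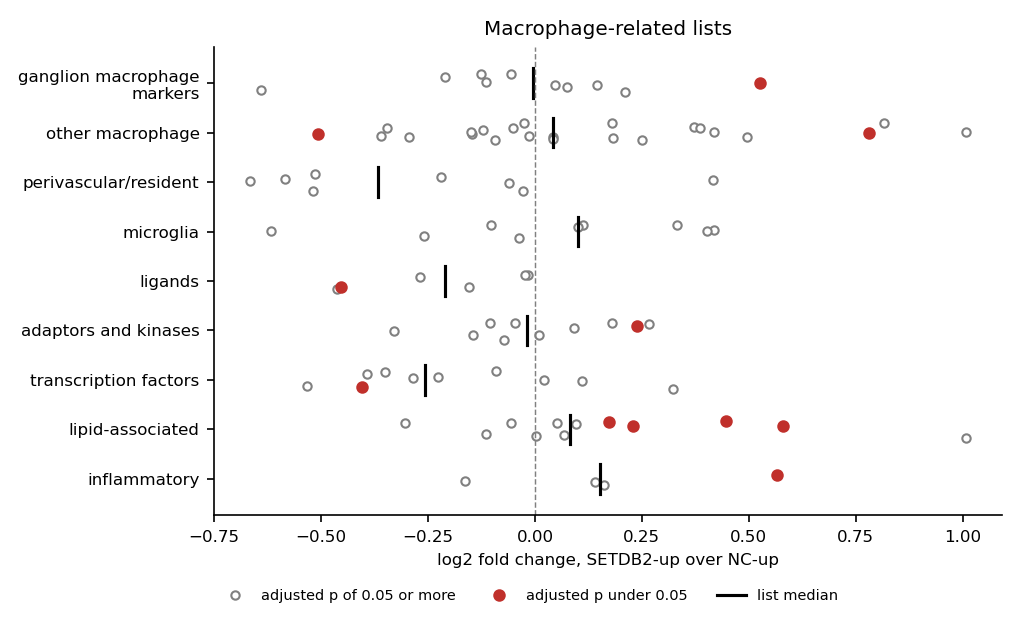
Log2 fold change, SETDB2-up over NC-up (horizontal axis), of each tested gene in the marker set and in the macrophage-related lists (rows). Filled points passed limma at an adjusted p under 0.05 and black bars are list medians; 1 of 10 markers, Lyz2, is filled.

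The promoters of the markers were searched for the purine-rich box of PU.1. Of the 10, 7 had an entry in the RefSeq table of promoters (GRCm38.p6, 250 bases before to 50 after the start). GAGGAA, on either strand, was found in those of Cd68, Aif1, Trem2 and Mrc1, 4 of the 7, and in 28.3% of all 32851 promoters. The overlapping motif AGGAAG, on either strand, was found in 3 of the 7, Lyz2, Trem2 and Mrc1, and in 35.4% of all promoters. A marker was counted where any of its promoter entries matched, whereas the percentages are shares of single entries. Where a gene has several entries, the counts and the percentages are therefore unlike measures. Lyz2 holds the second of these motifs and not the first, while Trem2 and Mrc1, which did not pass the test, hold both. Whether either motif bears on the change of any marker was not tested.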

How the data were processed

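Polyadenylated RNA of trigeminal ganglion was sequenced as strand-specific paired reads of 150 bp, per the labels' protocols. Reads were checked with FastQC and aligned with HISAT2, and the build was GRCm38, per the submitters' processing notes. Which counter, strand setting, annotation, scaling method and low-count filter the authors used is not stated there. The deposited signal is a read count per gene, scaled by the authors with 1 factor for each library: 100% of the values are whole multiples of the library's step (tolerance 0.001 read), which gave whole reads back.

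The main test was limma (3.58.1, R 4.3.3) with a mean-variance trend on log2(value + 1), over the 16387 genes that reached a value of 1 in 3 or more libraries (28 genes removed), with Benjamini-Hochberg adjustment over all of them and a threshold of 0.05. The design had set edgeR for raw counts and limma for normalised values, and limma was used because the deposited values are scaled. Fold changes on this scale understate the change of low genes. EdgeR (4.0.16, quasi-likelihood), which called 2695 genes, and DESeq2 (1.42.0) on recovered reads, a GC correction (a loess trend of each library on transcript GC content, known for 94.7% of genes, from GENCODE M21), the replicate block, a pseudocount of 0.1, no filter and leaving out libraries were alternatives; summing Lyz1 and Lyz2 and leaving out NC-up libraries 2 and 3 together were chosen after seeing the data. No library repeated another of its group within sampling noise (chi-square over degrees of freedom 3.95 to 9.87). Only the main limma fit and the edgeR fit were checked on simulated counts, which held no GC trend. Level per length used the longest coding transcript. In these libraries a count of 3 reads equals 0.128 to 0.155 CPM, and counting errors cover counting only.

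The members, lists and tests were chosen with earlier results of these data known. Named genes were the 10 markers, genes of each macrophage-related list past the threshold (up to 4, or the most abundant 2 where none passed), and the most abundant gene of other lists; of the last, only those a result turns on are given, and some genes that the rule selects are not reported here.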

Additional observations from a re-analysis of the deposited data

How the results depend on the processing

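Of 180 values of the 10 markers under alternatives, 152 kept their direction and their side of the threshold. With the direction kept, 7 lost a call (all Lyz2) and 1 gained one (Mrc1). A further 20 changed sign, in markers other than Lyz2, among them the Cx3cr1 call given below. The count of markers past the threshold, 1, became 0 in DESeq2, 0 after GC correction, 0 without SETDB2-up libraries 1 and 2 together and 2 with GC correction and the replicate block, and ranged from 0 to 1 when each library was left out. Without NC-up libraries 2 and 3 together it was 1, but the marker was Cx3cr1, which fell. The count of genes, 2690, became 830 after GC correction, 1672 with GC correction and the replicate block, 540 without SETDB2-up libraries 1 and 2 and 1129 without NC-up libraries 2 and 3, and ranged from 1093 (without SETDB2-up library 1) to 3333 when each library was left out, with 1573 without SETDB2-up library 2 and 1611 without NC-up library 2; the cause was not tested.

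Same-numbered libraries of the groups correlated only weakly in their deviations from the group means (r = 0.0359 to 0.0484), under the 0.1 that would pair them, although each of the 6 correlated best with its own number. With the replicate block 3618 genes passed, and among the markers Lyz2 (log2 fold change 0.53, adjusted p = 2.72e-06 by limma). With the block and GC correction together Lyz2 (0.47) and Mrc1 (-0.37, adjusted p = 0.0284 by limma) passed. The samples share only a number, and this block is no part of the design.

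Signs changed for Cx3cr1 in edgeR with TMM (-0.015), RLE (-0.010) or no filter (-0.015) and in DESeq2 (-0.020), for Cd163 after GC correction with or without the block (-0.017), and for genes outside the set: after GC correction, with or without the block, Gas6 (0.074), Stab1 (0.12) and Il34 (0.13), the last also without SETDB2-up libraries 1 and 2 (0.10). Without NC-up libraries 2 and 3 signs changed for Cx3cr1 (-0.66), Trem2 (-0.31), Tyrobp (-0.18), Olfml3 (-0.19), Lyz1 (-0.14) and Il34 (0.0070). When each library was left out, log2 fold changes ranged from -0.25 to 0.15 for Cd68, -0.15 to 0.44 for Cx3cr1, -0.036 to 0.37 for Trem2, -0.16 to 0.30 for Cd163, -0.37 to 0.095 for Adgre1, -0.033 to 0.41 for Tyrobp, -0.25 to 0.10 for Stab1 and -0.076 to 0.04 for Il34. Depth limits Aif1 most, at 14 reads in its lowest library.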

Other observations

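Genes that macrophages raise when they take up lipid were read from a list of 13, of which 12 were tested. Of these, 4 rose, none fell, and the median log2 fold change was 0.08, while over all genes tested 7.71% rose and 8.71% fell. Spp1, the secreted phosphoprotein osteopontin, had 2356, 2298 and 2410 normalised reads in the SETDB2-up libraries and 1852, 1608 and 1732 in NC-up libraries (log2 fold change 0.45 ± 0.07 SE, adjusted p = 0.000193 by limma). The groups did not overlap, and Spp1 passed in 18 of 18 alternatives. Gpnmb, a lysosomal glycoprotein, had 229.9, 166 and 137 in SETDB2-up libraries and 133, 105 and 111 in NC-up libraries (0.58 ± 0.18 SE, adjusted p = 0.0347 by limma; 0.55 and 0.0872 after GC correction). Its call was also lost without SETDB2-up library 1 or 2 or NC-up library 2 or 3 (0.38 to 0.61, adjusted p = 0.0758 to 0.275 by limma). Fabp5, a fatty acid binding protein (0.23 ± 0.07 SE, adjusted p = 0.0231 by limma), and the tetraspanin Cd9 (0.17 ± 0.05 SE, adjusted p = 0.028 by limma) rose as well, and both lost their calls after GC correction (0.11 and 0.065). After GC correction, where 5.35% of all genes passed in either direction, 2 genes of the list rose, Spp1 and the lysosomal protease Ctsd. Ctsd was at 0.22 ± 0.05 SE (adjusted p = 0.0127 by limma), against 0.10 ± 0.06 SE (adjusted p = 0.276 by limma) without the correction. The call of Fabp5 was lost without SETDB2-up library 1, 2 or 3 or NC-up library 2 (0.18 to 0.26, adjusted p = 0.0503 to 0.122 by limma), and that of Cd9 without every library but SETDB2-up library 3 (0.15 to 0.19, adjusted p = 0.0502 to 0.14 by limma). Sensory neurons, glia and other ganglion cells make several of these genes, so the cell type behind them was not tested.

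Of 12 inflammatory genes 4 were tested and 1 passed, beside 16.4% of all genes tested. Tlr4, the receptor for bacterial lipopolysaccharide, had 141.5, 126 and 107 normalised reads in the SETDB2-up libraries and 92.2, 70.9 and 89.4 in NC-up libraries (log2 fold change 0.56 ± 0.18 SE, adjusted p = 0.0430 by limma). The groups did not overlap, but the call was lost in edgeR (adjusted p = 0.0515) and after GC correction (0.34, adjusted p = 0.301), and without SETDB2-up library 1 or 2 or NC-up library 2 or 3 (0.45 to 0.61, adjusted p = 0.0557 to 0.226 by limma).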
